A study of Homo sapiens with 9 samples.

Results

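The KEAP1-NRF2 system was followed through 10 genes in MM.1S, an established human plasma cell line derived from multiple myeloma. They are NFE2L2, which encodes the transcription factor NRF2, its inhibitor KEAP1, and 8 enzyme or stress genes known as NRF2 targets, namely NQO1, PIR, OSGIN1, ME1, TXN, TXNRD1, PRDX1 and SRXN1. They form a list of 10 symbols, and each matched 1 Ensembl ID among the 60675 IDs of the count table, and all 10 passed the filter on low counts. The cells had been given EGCG (epigallocatechin gallate), a green tea polyphenol, for 24 h. Libraries were made from total RNA of cells given 0, 40 or 80 µM EGCG, 3 libraries per dose, and those at 0 µM are called the control. The labels give no genetic change or second agent for any group, and all libraries come from this 1 cell line. The question put to the counts was which of these genes had reached their level by 40 µM and which went on changing up to 80 µM.

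In resting cells KEAP1 binds NRF2 and presents it to the CUL3 ubiquitin ligase, so that NRF2 is made and destroyed continuously. Electrophiles and oxidants modify cysteines of KEAP1, NRF2 then escapes degradation, enters the nucleus with a small MAF protein and binds antioxidant response elements beside its target genes. This control acts on the NRF2 protein, so the RNA of NFE2L2 and KEAP1 does not report NRF2 activity directly. The targets include quinone reductases, enzymes that supply NADPH, and the thioredoxin and peroxiredoxin system that reduces peroxides and protein disulfides.

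The 9 libraries held 12674490 to 16427343 counts. The first principal component, with 43.5% of the variance, ordered the libraries by dose, and 40 µM replicate 2 lay apart on the second (13.7%). All 10 plasma cell and myeloma markers checked averaged at least 1 CPM (counts scaled to library size with TMM factors) in every group, with a summed level of 8221 to 8563 CPM in the control, 7723 to 8147 CPM at 40 µM and 6501 to 7097 CPM at 80 µM. Among 20 markers of mature B, T and NK, monocyte and stromal or endothelial cells, 5 averaged 1 CPM or more in control cells, 5 did at 40 µM and 4 did at 80 µM. CD22, CD3D, NKG7 and COL1A2 were at 0 in every library. Control libraries spent 0.649 to 0.731% of counts on mitochondrial ribosomal RNA, those at 40 µM 1.28 to 1.63% and those at 80 µM 3.97 to 4.65%, and its part in the results was not tested beyond removing mitochondrial genes from the scaling, which changed no call of the 10 genes. In RNA from bulk cells, fewer cells expressing a gene and less of its RNA per cell cannot be told apart.

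At 40 µM against the control 3 of the 10 genes rose, NQO1, PIR and ME1, and none fell (edgeR's quasi-likelihood test, Benjamini-Hochberg adjusted p under 0.05). Over all 15982 genes tested 1.49% were called higher and 0.813% lower in that comparison. At 80 µM against the control 5 rose, NQO1, PIR, OSGIN1, ME1 and SRXN1, and 1 fell, PRDX1, where 17.4% of all genes were called higher and 17.5% lower. At 80 µM against 40 µM OSGIN1, ME1 and SRXN1 were higher and PRDX1 was lower, where 10.9% of all genes were higher and 12.1% lower. The median log2 fold change of the 10 genes was 0.41 at 40 µM and 0.93 at 80 µM against the control, where that of all genes tested was 0.01 and -0.00. Both comparisons share the control libraries. The 2 regulators, TXN and TXNRD1 were called in none of these comparisons.

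**Figure D1:**
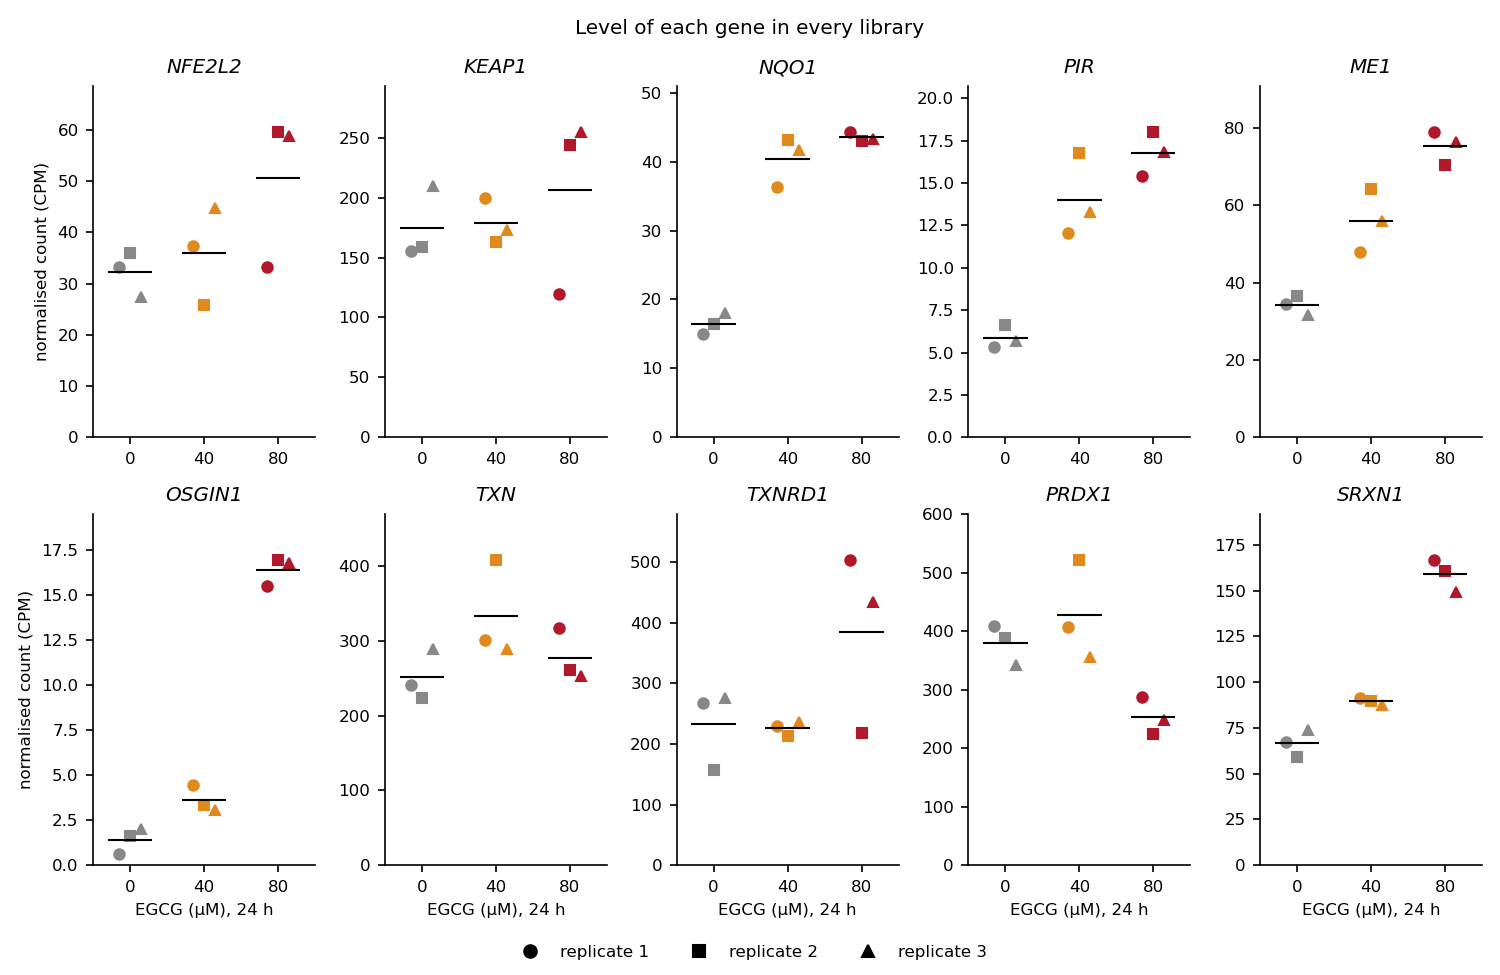
Normalised count (CPM, each vertical axis starting at 0) of the 10 genes in every library by EGCG dose (µM, 24 h); symbols mark the replicate and the bar the mean of 3 libraries. NQO1 sat at 36.3 to 43.2 CPM at 40 µM and 42.9 to 44.3 CPM at 80 µM, whereas OSGIN1 and SRXN1 at 80 µM lay well clear of 40 µM.

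At 80 µM the 2 regulators and TXNRD1 varied more between libraries than the other genes, with coefficients of variation of 29.6% for NFE2L2, 36.5% for KEAP1 and 38.8% for TXNRD1 against 1.65 to 12.8% for the other 7. NFE2L2 (ENSG00000116044, GRCh38 chromosome 2, 177227595 to 177392697, minus strand) had 33.2, 35.9 and 27.4 CPM in the control, 37.4, 25.9 and 44.8 CPM at 40 µM, and 33.3, 59.6 and 58.8 CPM at 80 µM. In 80 µM replicates 2 and 3 it lay above every other library, but 80 µM replicate 1 was level with the control, so the groups overlapped. Its log2 fold change was 0.65 ± 0.25 at 80 µM (SE, adjusted p = 0.0634) and 0.16 ± 0.25 at 40 µM (adjusted p = 0.746). Without 80 µM replicate 1 the 80 µM value was 0.87 (adjusted p = 0.0144), and DESeq2 called it too (0.66, adjusted p = 0.0290), as did the fit lacking 40 µM replicate 2 (adjusted p = 0.0464). Against 40 µM, NFE2L2 at 80 µM differed by 0.49 ± 0.25 (adjusted p = 0.182), and by 0.71 without 80 µM replicate 1 (adjusted p = 0.0481). Its exons share 54 bases with AGPS on the opposite strand and 1054 bases with AC019080.1, which held 100 counts over the 9 libraries beside 5058 for NFE2L2.

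KEAP1 (ENSG00000079999, chromosome 19, 10486120 to 10503741, minus strand) had 155, 159 and 210 CPM in the control, 199, 163 and 173 CPM at 40 µM, and 120, 244 and 255 CPM at 80 µM. The lowest of its 9 values was that of 80 µM replicate 1, the same library in which NFE2L2 was low, and the 80 µM group spanned the whole control range. No change was detectable, with log2 fold changes of 0.03 ± 0.24 at 40 µM (95% interval -0.51 to 0.57, adjusted p = 0.957) and 0.24 ± 0.24 at 80 µM (-0.30 to 0.78, adjusted p = 0.484). Without 80 µM replicate 1 the value at 80 µM was 0.51 (adjusted p = 0.0349).

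Of the quinone and NADPH enzymes, NQO1 met all parts of the definition used here for levelling off. A gene had to be called at 40 µM against the control, not be called at 80 µM against 40 µM, and have a change over the second 40 µM that was called smaller than that over the first. NQO1 (ENSG00000181019, chromosome 16, 69706996 to 69726951, minus strand) encodes NAD(P)H quinone dehydrogenase, which reduces quinones directly to hydroquinones and is widely used as a marker gene of NRF2 activity. It had 14.9, 16.4 and 18.1 CPM in the control, 36.3, 43.2 and 41.7 CPM at 40 µM, and 44.3, 42.9 and 43.3 CPM at 80 µM. Both doses lay above every control library, while the ranges at 80 and 40 µM overlapped. Exons of NQO1 share 575 bases with AC092115.2 on the opposite strand, which held 4 counts over the 9 libraries beside 4269 for NQO1.

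NQO1 was 2.45-fold higher at 40 µM than in the control (95% interval 2.04 to 2.95, adjusted p = 0.000485) and 2.64-fold higher at 80 µM (2.20 to 3.18, adjusted p = 2.45e-05). Between the doses its log2 fold change was 0.11 ± 0.12 (adjusted p = 0.539), a ratio of 80 to 40 µM of 1.08 with a 95% interval of 0.902 to 1.29. On the linear scale the first 40 µM added 23.9 CPM and the second 3.15 CPM, so that 88.4% of the difference between 80 µM and the control was present at 40 µM. The second log2 step minus the first was -1.18 ± 0.20 (95% interval -1.63 to -0.74, adjusted p = 0.0468). With the control and 40 µM means taken as fixed, equal steps in CPM would have given -0.62 for this quantity, which lies outside that interval.

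The call of the step difference sat close to the threshold. Across 17 alternative fits the value for NQO1 stayed between -1.34 and -1.07, and the call was kept in 7 and lost in 10. The adjusted p was 0.0726 with no filter on low counts. Leaving out 1 library gave an adjusted p over 0.05 for 8 of the 9 libraries, at 0.117 and 0.0741 for control replicates 1 and 2, at 0.0510, 0.169 and 0.135 for the 3 libraries at 40 µM, and at 0.0743, 0.134 and 0.137 for the 3 at 80 µM. In all 17 fits NQO1 was called at 40 µM and not called between the doses.

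Over all genes, 0.163% had a step difference called above 0 and 0.131% one called below 0, while 3017 genes had a p under 0.05 before adjustment. Of the 10 members, NQO1 was the 1 called. Of 238 genes called higher at 40 µM, 149 (62.6%) were called higher again at 80 µM against 40 µM and 82 (34.5%) were not called between the doses, which is 0.513% of all genes tested. Genes that met all 3 parts made up 0.0125% of those tested, and they were NQO1 and HMOX1, which encodes the haem-degrading enzyme heme oxygenase 1 and is itself an NRF2 target. Other genes that met the first 2 parts had step differences of like size that just missed the threshold. Among them were ANKRD49 (-0.99, adjusted p = 0.0615), DSG2 (-1.13, 0.0615), PIP4K2C (-1.13, 0.0738) and P4HA1 (-1.40, 0.0754). The threshold thus does not set NQO1 and HMOX1 clearly apart from such genes. HMOX1 had 30.6, 27.1 and 38.4 CPM in the control, 119, 84.4 and 108 CPM at 40 µM, and 114, 111 and 117 CPM at 80 µM. Its second log2 step minus the first was -1.55 ± 0.26 (95% interval -2.13 to -0.98, adjusted p = 0.0465). Its lowest value at 40 µM was that of replicate 2. The call of that difference was kept in 9 of 17 alternative fits and lost in 8, with values from -1.80 to -1.34 and adjusted p up to 0.129 (without 40 µM replicate 3).

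PIR (ENSG00000087842, chromosome X, 15384799 to 15493564, minus strand) encodes pirin, an iron-binding nuclear protein with quercetinase activity. It had 5.33, 6.62 and 5.66 CPM in the control, 12.0, 16.8 and 13.3 CPM at 40 µM, and 15.4, 18.0 and 16.8 CPM at 80 µM. Every treated library lay above every control library, and 40 µM replicate 2 lay within the 80 µM range. PIR was 2.39-fold higher at 40 µM than in the control (1.85 to 3.08, adjusted p = 0.00424) and 2.85-fold higher at 80 µM (2.21 to 3.69, adjusted p = 0.000108). The ratio of 80 to 40 µM was 1.20 (0.936 to 1.53, adjusted p = 0.276), so PIR did not pass the test of a further change. Its step difference of -1.0 ± 0.28 was not called (adjusted p = 0.107), and the value for equal steps in CPM, -0.60, lies inside its 95% interval of -1.61 to -0.39. PIR was called at 40 µM and not between the doses in all 17 fits, and its step difference was called in none of them.

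ME1 (ENSG00000065833, chromosome 6, 83210389 to 83431071, minus strand) encodes cytosolic malic enzyme, which makes NADPH while turning malate into pyruvate. It had 34.4, 36.6 and 31.5 CPM in the control, 47.8, 64.3 and 56.0 CPM at 40 µM, and 79.0, 70.5 and 76.2 CPM at 80 µM. The 3 groups did not overlap, and the level went up in 2 steps of like size, 21.8 and 19.2 CPM. ME1 was 1.64-fold higher at 40 µM than in the control (1.34 to 2.00, adjusted p = 0.0205), 2.20-fold higher at 80 µM (1.80 to 2.68, adjusted p = 0.000131) and 1.34-fold higher at 80 µM than at 40 µM (1.10 to 1.63, adjusted p = 0.0360). The call at 40 µM was lost with only the libraries compared (adjusted p = 0.0770) and without control replicate 1 (0.0782), control replicate 3 (0.0786), 40 µM replicate 2 (0.0790) or 40 µM replicate 3 (0.0671). The call between the doses was lost with no filter on low counts (0.0846) and without control replicate 1 (0.0528), 40 µM replicate 1 (0.109), 40 µM replicate 3 (0.0836) or any of the 3 libraries at 80 µM (0.103, 0.0621 and 0.0907).

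OSGIN1 (ENSG00000140961, chromosome 16, 83948282 to 83966332, plus strand) encodes an oxidative stress-induced growth inhibitor. It had 0.607, 1.64 and 1.99 CPM in the control, which are 9, 22 and 26 counts, then 4.46, 3.31 and 3.06 CPM at 40 µM and 15.5, 16.9 and 16.8 CPM at 80 µM. The 3 groups did not overlap, and the gap between the doses was much the wider. OSGIN1 was 11.7-fold higher at 80 µM than in the control (7.08 to 19.3, adjusted p = 3.67e-05) and 4.51-fold higher at 80 µM than at 40 µM (2.88 to 7.08, adjusted p = 0.000944). At 40 µM its log2 fold change of 1.37 ± 0.33 missed the threshold (adjusted p = 0.0626), although DESeq2 called it (adjusted p = 0.0022). The first 40 µM added 2.20 CPM and the second 12.8 CPM, while the 2 log2 steps did not differ beyond their error (0.80 ± 0.54, adjusted p = 0.458). Exons of OSGIN1 share 481 bases with AC009119.2 on the same strand, a gene without an entry among the counts.

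**Figure D2:**
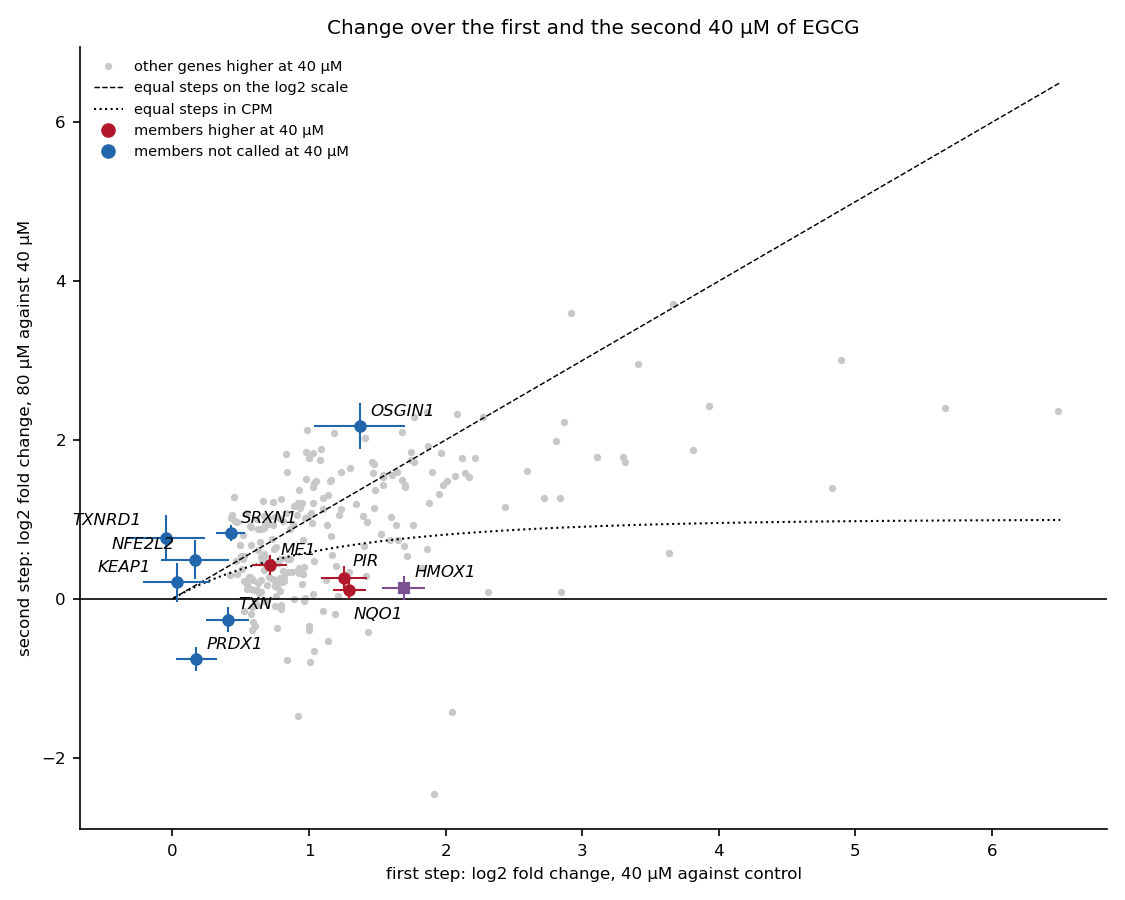
Log2 fold change over the second 40 µM (vertical) against that over the first 40 µM (horizontal), with SE bars, for the 10 genes (red where called at 40 µM, blue where not), HMOX1 (purple square) and the other genes called higher at 40 µM (grey); the dashed line marks equal log2 steps and the dotted line equal steps in CPM. NQO1 at 1.29 and 0.11 and PIR at 1.25 and 0.26 each lie below both lines. ME1 lies at 0.71 and 0.43, just under the dotted line, and OSGIN1 at 1.37 and 2.17 above both.

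The promoters of PIR, OSGIN1 and ME1 are shown because they were the called genes among the 10 whose windows held TGANTCAGC, a pattern searched for as described next. The windows are those of RefSeq on GRCh38.p14, from 250 bases before to 50 bases after a start site, and they were found for 9 of the 10 genes in 12 windows, with no window for PRDX1. Both strands were searched for TGACNNNGC, the core of the antioxidant response element, and for TGANTCAGC, a form that also holds the AP-1 core TGANTCA. A site such as TGACTCAGC matches both, and the letters of OSGIN1 match TGANTCAGC alone. Capitals mark the matches, written as they read on the gene's own strand, 5′ to 3′.
PIR, chrX:15493284-15493583, minus strand: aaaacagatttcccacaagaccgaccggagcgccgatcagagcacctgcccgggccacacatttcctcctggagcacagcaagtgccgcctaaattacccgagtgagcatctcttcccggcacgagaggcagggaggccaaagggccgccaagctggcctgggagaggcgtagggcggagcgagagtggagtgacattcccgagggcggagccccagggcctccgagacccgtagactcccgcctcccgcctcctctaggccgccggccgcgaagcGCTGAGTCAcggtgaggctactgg
OSGIN1, chr16:83952990-83953289, plus strand: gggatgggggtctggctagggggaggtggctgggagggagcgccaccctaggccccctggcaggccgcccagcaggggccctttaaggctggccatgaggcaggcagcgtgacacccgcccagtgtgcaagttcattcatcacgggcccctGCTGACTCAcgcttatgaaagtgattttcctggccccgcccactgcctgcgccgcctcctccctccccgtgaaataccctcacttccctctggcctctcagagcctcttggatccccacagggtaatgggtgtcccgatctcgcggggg
ME1, chr6:83431002-83431301, minus strand: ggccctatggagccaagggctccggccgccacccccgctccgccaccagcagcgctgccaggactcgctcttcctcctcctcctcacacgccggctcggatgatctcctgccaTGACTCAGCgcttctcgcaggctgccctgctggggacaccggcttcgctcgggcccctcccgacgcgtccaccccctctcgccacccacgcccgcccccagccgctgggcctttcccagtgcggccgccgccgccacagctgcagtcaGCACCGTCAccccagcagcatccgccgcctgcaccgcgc
In PIR the match GCTGAGTCA, which reads TGANTCAGC on the other strand, begins at base 27, counted with the start site as base 1 and the base before it as base -1. In OSGIN1 the match GCTGACTCA, also on the other strand, begins at base -99. In ME1 TGACTCAGC on the gene's own strand begins at base -137, and GCACCGTCA, a match to the core alone on the other strand, at base 12.

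Over all 35116 windows of that length 13.3% held TGACNNNGC and 1.36% held TGANTCAGC. TGACNNNGC was also found in 1 of the 2 windows of KEAP1 and in both of TXNRD1. In all, 6 of the 12 windows and 5 of the 9 genes had a match to either pattern. None was found in the windows of NFE2L2, NQO1, TXN or SRXN1, which says only that these letters are not in those 300 bases. Between the doses the ratio of 80 to 40 µM was 1.20 for PIR, 1.34 for ME1 and 4.51 for OSGIN1, the genes with a TGANTCAGC match, and differences between these genes were not tested.

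In the thioredoxin and peroxiredoxin group 2 genes changed, in opposite directions. SRXN1 (ENSG00000271303, chromosome 20, 646615 to 653370, minus strand) encodes sulfiredoxin, which repairs peroxiredoxins whose active cysteine has been over-oxidised. It had 67.4, 59.1 and 73.8 CPM in the control, 91.5, 89.9 and 87.6 CPM at 40 µM, and 167, 161 and 149 CPM at 80 µM. The 3 groups did not overlap. SRXN1 was 2.38-fold higher at 80 µM than in the control (2.02 to 2.80, adjusted p = 2.32e-05) and 1.77-fold higher at 80 µM than at 40 µM (1.51 to 2.08, adjusted p = 0.000752). Its log2 fold change of 0.43 ± 0.11 at 40 µM missed the threshold (adjusted p = 0.0662), and it passed with DESeq2 (0.0195) and among genes averaging at least 5 CPM (0.0448). The first 40 µM added 22.9 CPM and the second 69.3 CPM. Exons of SRXN1 share 2292 bases with AL121758.1 on the same strand, which held 0 counts over the 9 libraries beside 13389 for SRXN1. How reads from shared bases were assigned was not given.

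PRDX1 (ENSG00000117450, chromosome 1, 45511036 to 45523047, minus strand) encodes peroxiredoxin 1, the abundant cytosolic peroxidase that sulfiredoxin repairs. It had 409, 388 and 343 CPM in the control, 407, 523 and 357 CPM at 40 µM, and 287, 225 and 249 CPM at 80 µM. The 80 µM libraries lay below all 6 others, and the highest value came from 40 µM replicate 2, the library that stood apart. PRDX1 fell to 0.667 of the control level at 80 µM (0.529 to 0.840, adjusted p = 0.0125) and was at 0.591 of its 40 µM level (0.469 to 0.745, adjusted p = 0.00595). Without 40 µM replicate 2 the log2 fold change between the doses was -0.59 (adjusted p = 0.0197). Leaving out control replicate 1 ended the call against the control (-0.52, adjusted p = 0.0505), as did leaving out 80 µM replicate 2 (-0.49, adjusted p = 0.0616). The second log2 step minus the first was -0.93 ± 0.26 (adjusted p = 0.105) and was called with DESeq2 (-0.91, adjusted p = 0.0383). Exons of PRDX1 share 379 bases with MMACHC on the opposite strand, which held 2260 counts over the 9 libraries beside 45166 for PRDX1.

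TXN (ENSG00000136810, chromosome 9, 110243811 to 110256640, minus strand) encodes cytosolic thioredoxin, the small protein that passes electrons to peroxiredoxins and other disulfides. It had 242, 224 and 290 CPM in the control, 301, 409 and 289 CPM at 40 µM, and 318, 261 and 253 CPM at 80 µM. The groups overlapped in every pairing, and again 40 µM replicate 2 was highest. The log2 fold change was 0.40 ± 0.16 at 40 µM (adjusted p = 0.192), 0.22 without 40 µM replicate 2 (adjusted p = 0.512), and 0.14 ± 0.16 at 80 µM (95% interval -0.21 to 0.49, adjusted p = 0.530). Its processed pseudogenes held few counts of their own, the most being 470 for TXNP4 over all libraries, and reads from near-identical copies may have been split between them.

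TXNRD1 (ENSG00000198431, chromosome 12, 104215779 to 104350305, plus strand) encodes thioredoxin reductase 1, the selenoprotein that uses NADPH to keep thioredoxin reduced. It had 267, 157 and 277 CPM in the control, 229, 213 and 236 CPM at 40 µM, and 505, 218 and 435 CPM at 80 µM. In 80 µM replicates 1 and 3 it lay above every other library, whereas 80 µM replicate 2 was within the range of 40 µM and of the control. The log2 fold change was -0.05 ± 0.28 at 40 µM (adjusted p = 0.943), 0.72 ± 0.28 at 80 µM (adjusted p = 0.0726) and 0.77 ± 0.29 between the doses (adjusted p = 0.0773). Without 80 µM replicate 2 the change at 80 µM was 1.02 (adjusted p = 0.0077) and that between the doses 1.07 (adjusted p = 0.0131), and DESeq2 called both (0.0272 and 0.0242). TXNRD1 spans the pseudogene RPL18AP3, which held 101197 counts against 35404 for TXNRD1 but shares no exonic base with it.

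**Figure D3:**
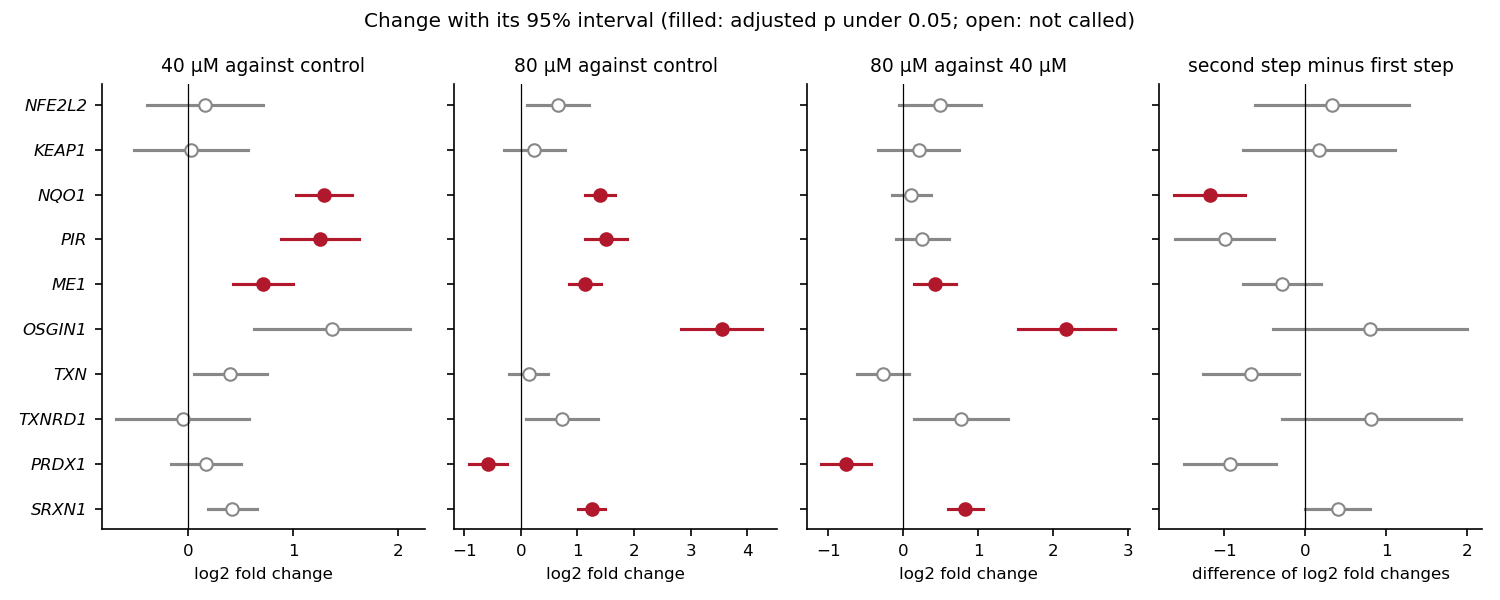
Log2 fold change of each gene with its 95% interval in the comparisons of 40 µM with the control, 80 µM with the control and 80 µM with 40 µM, and, at the right, the second log2 step minus the first; filled points passed an adjusted p of 0.05. NQO1 is the 1 filled point at the right, at -1.18, and the widest intervals are those of OSGIN1, TXNRD1, NFE2L2 and KEAP1.

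Compared per length, the RNAs of PRDX1 and TXN were the most abundant of the 10. In the control PRDX1 and TXN averaged 250 and 220 CPM per kb of merged exon, followed by KEAP1 at 46.5, TXNRD1 at 34.8, SRXN1 at 24.8, ME1 at 10.1, NFE2L2 at 5.38, NQO1 at 5.06, PIR at 2.34 and OSGIN1 at 0.408 CPM per kb. In the authors' deposited FPKM, which rests on gene lengths up to 3.00 times the merged exons (for TXNRD1), TXN was at 144 ± 12.7 and PRDX1 at 142 ± 18.9 FPKM (SD, n = 3), closer than their spread, and SRXN1 ranked above KEAP1 and TXNRD1. NQO1 and NFE2L2, at 3.16 ± 0.182 and 2.81 ± 0.496 FPKM in the control, were neighbours within their spread on this scale. At 80 µM they lay at 8.48 ± 0.0280 FPKM for NQO1 and 4.47 ± 1.37 FPKM for NFE2L2, and SRXN1 ranked next after TXN and PRDX1 on both scales, at 58.9 CPM per kb and 63.6 ± 3.37 FPKM. OSGIN1 remained the least abundant at each dose.

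The genes whose course was most like that of NQO1 were ranked by the root mean square difference of their log2 levels over the 9 libraries, each gene set relative to its control mean, among 10847 genes averaging at least 5 CPM. PIR came first, at 0.142, followed by the lipoprotein receptor gene VLDLR at 0.227, the phosphoinositide kinase gene PIP4K2C at 0.228, the CDC42 effector gene CDC42SE1 at 0.249 and the interferon-induced OAS3 at 0.250. All 5 were called higher at both doses. Between the doses OAS3 was called higher (log2 fold change 0.55, adjusted p = 0.0319) and the other 4 were not, and none of the 5 had a called step difference.

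Of 20 factors that control KEAP1 and NRF2 and were tested, 1 rose at 40 µM, and at 80 µM against the control 7 rose and 6 fell. Of all genes tested 1.49% were higher at 40 µM, and at 80 µM 17.4% were higher and 17.5% lower. SQSTM1, the autophagy receptor p62 that binds KEAP1 and is also an NRF2 target, rose by 0.55 ± 0.11 on the log2 scale at 40 µM (adjusted p = 0.0352) and by 1.63 ± 0.12 at 80 µM (adjusted p = 7.87e-06). BACH1, a repressor that competes with NRF2 at antioxidant response elements, rose by 1.53 ± 0.19 at 80 µM, where at 40 µM its change was 0.72 ± 0.19 (adjusted p = 0.0757). Among the small MAF genes, MAFG fell by 1.00 ± 0.14 at 80 µM, whereas MAFF rose by 1.63 ± 0.36 (adjusted p = 0.0057). MAFK was at -0.83 ± 0.52 at 80 µM and was not called (adjusted p = 0.248). DPP3, which binds KEAP1, fell by 1.04 ± 0.15 at 80 µM. CUL3, the scaffold of the ligase, was at 0.02 ± 0.10 and -0.09 ± 0.10 at 40 and 80 µM and was not called. RBX1, another subunit of that ligase, fell by 0.48 ± 0.14 at 80 µM (adjusted p = 0.0219), a call lost in 3 of 18 alternative fits. FBXW11, a subunit of another ligase complex acting on NRF2, was at 0.26 ± 0.12 and 0.10 ± 0.12 at 40 and 80 µM and was not called. SYVN1, which encodes a further ligase acting on NRF2, rose by 0.60 ± 0.11 at 80 µM (adjusted p = 0.0020). The call of SQSTM1 at 40 µM was lost in 10 of 18 alternative fits (adjusted p up to 0.140), and its call at 80 µM in none. The median of the list was 0.12 at 40 µM and 0.03 at 80 µM.

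Of 27 other NRF2 targets tested, out of 35 listed, 9 rose and none fell at 40 µM, with a list median of 0.36, where 1.49% of all genes were higher and 0.813% lower. Across 18 alternative fits the number called higher at 40 µM was 5 to 10. At 80 µM 13 rose and 3 fell, with a median of 0.48, where 17.4% of all genes were higher and 17.5% lower. The 9 genes called at 40 µM are grouped below by whether they were called between the doses. The levels given for them follow in part from that sorting, and differences between the genes were not tested. HMOX1, the glutathione synthesis genes GCLM and GCLC, glutathione reductase GSR and the ferritin light chain FTL were not called between the doses, and their 40 µM level was 85.4 to 91.6% of that at 80 µM. The step differences of GCLM, GCLC, GSR and FTL were not called either (adjusted p = 0.148, 0.267, 0.353 and 0.235). The cystine importer SLC7A11, the ferritin heavy chain FTH1, the NADPH-producing IDH1 and the aldo-keto reductase AKR1C3 were called higher again, with a 40 µM level of 29.4 to 49.1% of that at 80 µM. Of all 238 genes called higher at 40 µM, 34.5% were not called between the doses and 62.6% were called higher again. The 40 µM calls of HMOX1, GCLM, SLC7A11 and FTH1 held in all 18 alternative fits, whereas that of IDH1 was lost in 1 of them, FTL in 5, GSR in 11, GCLC in 12 and AKR1C3 in 14. GCLM rose by 0.82 ± 0.11 at 40 µM and 1.04 ± 0.11 at 80 µM, while SLC7A11 rose by 2.12 ± 0.22 and 3.89 ± 0.23. FTL and FTH1, which together form the ferritin shell, both rose at 80 µM, by 0.97 ± 0.14 for FTL and 2.23 ± 0.11 for FTH1. The export pumps ABCC1 and ABCC4 and the glutathione transferase GSTP1 fell at 80 µM, by 0.63 ± 0.10, 0.95 ± 0.14 and 0.42 ± 0.11. A further export pump gene, ABCC2, rose by 1.07 ± 0.21 at 80 µM (adjusted p = 0.0030).

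**Figure D4:**
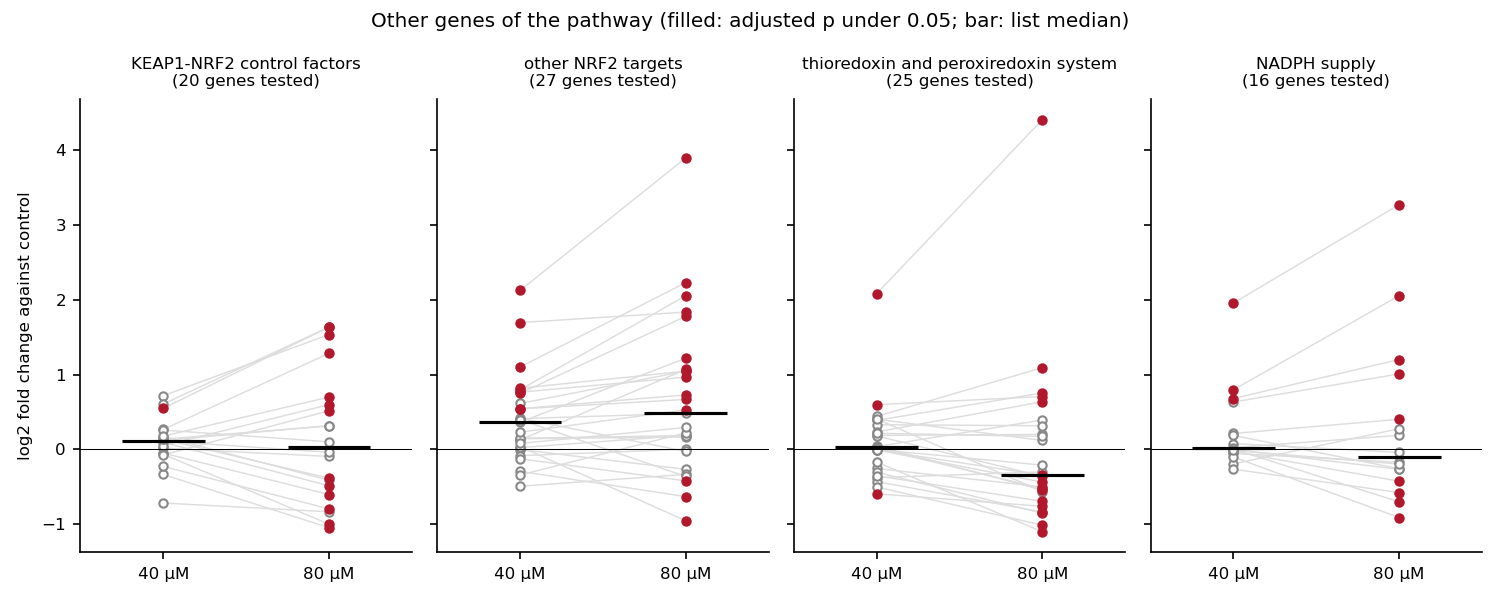
Log2 fold change against the control at 40 and 80 µM for the other genes of the pathway in 4 lists, lines joining the same gene, filled points passing an adjusted p of 0.05 and the bar marking the list median. The other NRF2 targets have medians of 0.36 at 40 µM and 0.48 at 80 µM, and the thioredoxin and peroxiredoxin system 0.04 at 40 µM and -0.34 at 80 µM.

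Of 25 thioredoxin and peroxiredoxin genes tested outside the 10, 2 rose and 1 fell at 40 µM, and at 80 µM 5 rose and 12 fell (list medians 0.04 and -0.34). Over all genes 1.49% were higher and 0.813% lower at 40 µM, and 17.4% higher and 17.5% lower at 80 µM. Across the alternative fits 0 to 3 rose and 0 to 2 fell at 40 µM, and 5 to 6 rose and 7 to 13 fell at 80 µM. The peroxiredoxins PRDX2, PRDX3, PRDX4 and PRDX6 fell at 80 µM, by 1.01 ± 0.12, 0.36 ± 0.11, 0.50 ± 0.11 and 0.34 ± 0.10, while PRDX5 was at 0.39 ± 0.23 and was not called (adjusted p = 0.218). The 80 µM call was lost in 5 of 18 fits for PRDX3 and in 3 for PRDX6. TXNIP, the thioredoxin inhibitor, fell by 0.54 ± 0.09, and TXNDC17, a thioredoxin-like protein, fell by 1.10 ± 0.16. The genes that rose at 80 µM were glutaredoxin GLRX, the quinone reductase NQO2 and the sestrins SESN1, SESN2 and SESN3. NQO2 rose by 0.60 ± 0.13 at 40 µM and 0.71 ± 0.13 at 80 µM and was not called between the doses (0.11 ± 0.13, adjusted p = 0.586). The selenoprotein gene SELENOH fell by 0.59 ± 0.13 at 40 µM and by 0.76 ± 0.13 at 80 µM. The 40 µM calls of NQO2 and SELENOH were lost in 11 and 10 of the 18 fits.

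ME1 was 1 of several NADPH sources, and those changed unequally. Of 16 other NADPH supply genes tested, out of 17 listed, 3 rose at 40 µM, and at 80 µM 5 rose and 4 fell (list medians 0.01 and -0.11). The shares over all genes were 1.49% higher at 40 µM, and 17.4% higher and 17.5% lower at 80 µM. The mitochondrial folate enzymes ALDH1L2 and MTHFD2 rose by 3.27 ± 0.14 and 1.20 ± 0.10 at 80 µM, and cytosolic IDH1, which stands in this list and in that of NRF2 targets, by 2.05 ± 0.13. Mitochondrial IDH2 fell by 0.58 ± 0.09 and cytosolic MTHFD1 by 0.91 ± 0.09. The pentose phosphate enzyme gene PGD, which is also listed as an NRF2 target, was at 0.19 ± 0.12 at 80 µM and was not called (adjusted p = 0.232).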

How the data were processed

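RNA of MM.1S cells was sequenced in 9 libraries, 3 per EGCG dose. For each library the authors deposited gene counts beside FPKM, per the file headers. Every test used the deposited counts, which are unscaled whole numbers. The deposited FPKM values are scaled by the authors to gene length and library size, and they were used here only to set levels of different genes side by side. The submitters' processing notes list GRCh38, SAMtools 1.3.1, HISAT2, edgeR and CASAVA 1.8, without roles or order. The program, strand setting and annotation release behind the counts were not given in the sources used here, and reads of overlapping genes on opposite strands cannot be told apart. Positions are those of GENCODE 29.

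Genes were filtered with filterByExpr, which kept 15982 genes and 99.71 to 99.83% of each library's counts, and scaled by TMM (factors 0.945 to 1.031). A floor of 3 counts corresponds to 0.183 to 0.234 CPM. The quasi-likelihood test of edgeR 4.0.16 (R 4.3.3) was fitted to all 9 libraries with dose as a factor, so the groups share 1 estimate of spread. Every adjusted p is Benjamini-Hochberg adjusted over all genes tested by this test unless another is named, with a threshold of 0.05. The step contrast is the log2 change over the second 40 µM minus that over the first. SE was derived from F, as |log2 fold change| over √F. The pipeline was tested on simulated data. Alternatives used DESeq2 1.42.0, limma-voom (limma 3.58.1), other scalings and filters, and fits without each library.

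The labels do not say that replicates were separate cultures, so p-values measure the spread between these libraries. No replicate was a copy of another (chi-square per degree of freedom 12.74 to 33.48). The 10 genes and the pathway lists were chosen with earlier results of these data known. All 10 genes are named, the 4 list members with the smallest p-values per comparison with the control, the 5 genes most like NQO1, and other list genes, among them CUL3, TXNIP, PGD and the peroxiredoxins, which were chosen after their values were seen.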

Additional observations from a re-analysis of the deposited data

How the results depend on the processing

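In 18 alternative fits (17 for the step contrast) the 10 genes gave the same direction and side of the threshold for most results, and calls lost or gained, other than with the replicate block, stand beside each gene above. The count of genes called at 40 µM against the control, 368, was 859 with DESeq2, 228 with low counts kept, 153 with only the libraries compared, 183 with a replicate block and 136 to 469 without 1 library, and members called higher were 5 with DESeq2. The count at 80 µM against 40 µM, 3674, was 2101 to 4059 without 1 library, and members called lower at 80 µM against the control were 0 to 1. The count in the step contrast, 47, was 73 with library size alone, 705 with DESeq2, 25 with low counts kept, 126 among genes averaging at least 5 CPM, 6 with a replicate block and 10 to 44 without 1 library, and members called lower were 2 with DESeq2, 0 with low counts kept, 0 with a replicate block and 0 to 1 without 1 library. The cause was not tested. No sign of pairing by replicate number was seen, as deviations from the group mean correlated at -0.14 to 0.05 between same-numbered libraries. With 3 libraries per group these correlations cannot exclude that same-numbered libraries shared a culture or batch. With the replicate block the adjusted p was 0.119 for the step difference of NQO1, 0.0533 and 0.0576 for ME1 at 40 µM and between the doses, and 0.0234 and 0.0398 for TXNRD1 at 80 µM and between the doses. Sign changes occurred in uncalled values near 0. At 40 µM TXNRD1 was 0.016 with the replicate block, and without 1 library it ranged from -0.27 to 0.063, KEAP1 from -0.054 to 0.16, PRDX1 from -0.0054 to 0.30 and NFE2L2 from -0.017 to 0.34. NFE2L2 in the step contrast ranged from -0.036 to 0.70. Scaling moved the median of all genes by less than 0.1. At this depth OSGIN1 rested on 9 counts in control replicate 1.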
